A study of Homo sapiens with 6 samples.

Results

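The cyclins of the D, E, A and B classes are the regulatory subunits that carry cells through the division cycle. The 10 genes described here are *CCND1*, *CCND2*, *CCND3*, *CCNE1*, *CCNE2*, *CCNA1*, *CCNA2*, *CCNB1*, *CCNB2* and *CCNB3*, and they were taken by symbol from a table of read counts for 58336 genes. All 10 were found, and all 10 passed the filter on low counts, so each could be tested.

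The RNA came from A2780, an established human ovarian cancer cell line, grown in insulin-containing medium with serum. The cells received either DMSO, the vehicle, or 6 µM TH588 (TH-588 in the labels) for 48 h. TH588 is a first-generation inhibitor of MTH1, the hydrolase that removes oxidized nucleotides from the nucleotide pool, and it belongs to the inhibitors that also stall cells in mitosis. There were 3 replicates per treatment, lettered A, B and C, which makes 6 libraries. All of the results concern this single cell line, a single dose and a single time.

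A cyclin has no enzymatic activity of its own. It binds a cyclin-dependent kinase (CDK), switches it on and helps to choose its substrates. D-type cyclins respond to growth signals and, with CDK4 or CDK6, begin to phosphorylate the retinoblastoma protein. E-type cyclins with CDK2 complete that step and start DNA replication. Cyclin A2 acts through S phase and G2, and the B-type cyclins with CDK1 drive entry into mitosis. In dividing cells the RNAs of *CCNE1* and *CCNE2* peak around the start of S phase, and those of *CCNA2*, *CCNB1* and *CCNB2* peak later, in G2 and M. The D-type RNAs vary much less over the cycle.

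The libraries held between 28537837 counts, in TH588 replicate A, and 99074175 counts, in TH588 replicate B. The small nucleolar RNA *SNORD3A* took 21.94% of TH588 replicate A and 7.68% to 12.95% of the others. Without that library the log2 fold changes described further on were -2.04 for *CCNE2*, -1.59 for *CCNA2*, -0.56 for *CCNB1* and 0.70 for *CCNB3*, close to the values with it, and -0.07 for the scarce *CCNA1*, against -0.30 with it. Levels are given as CPM, the counts per 1000000 counts of a library whose size was scaled by the TMM method. Of 7 epithelial and ovarian marker genes, only *KRT18* reached 1 CPM in every library of both groups. *EPCAM* did so with TH588 only, and *PAX8*, *WT1*, *KRT8*, *CDH1* and *MUC16* stayed at or below 0.262 CPM in every TH588 library, so most defining markers of the labelled tissue were near 0. The summed level of the 7 was 3.82 to 4.60 CPM with DMSO and 10.9 to 12.2 with TH588. Of 5 markers of blood, endothelial and connective tissue cells, only *COL1A1* reached that level. The sum of the 5 overlapped between the groups, at 3.23 to 4.72 and 2.58 to 5.02 CPM.

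The test, edgeR's quasi-likelihood test, was run over 15844 genes, and p-values were adjusted over all of them by the Benjamini-Hochberg method with a threshold of 0.05. A positive log2 fold change means more RNA with TH588. Of the 10 cyclins, 6 were lower with TH588, 1 was higher and 3 did not pass the threshold. In the same comparison 49.6% of all genes tested passed the threshold, 25.3% as lower and 24.2% as higher, so calls were common in this table. With scaling by library size alone the balance was different, with 4248 genes higher and 2786 lower, against 3839 and 4013 with TMM. The median log2 fold change of the 10 cyclins was -0.56, against 0.02 over all genes tested. The groups did not overlap for 7 of the 10, as was so for 57.7% of all genes. The counts of 6 lower and 1 higher were unchanged under each of the alternatives run, including the fit without TH588 replicate A. In bulk RNA, fewer cells in a given phase of the cycle and less RNA per cell cannot be told apart. *MKI67*, a marker of proliferating cells looked up after the cyclin values were seen, fell from 1612 ± 103 to 535 ± 83.2 CPM (SD, n = 3 each), and its part in the cyclin results was not tested.

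**Figure D1:**
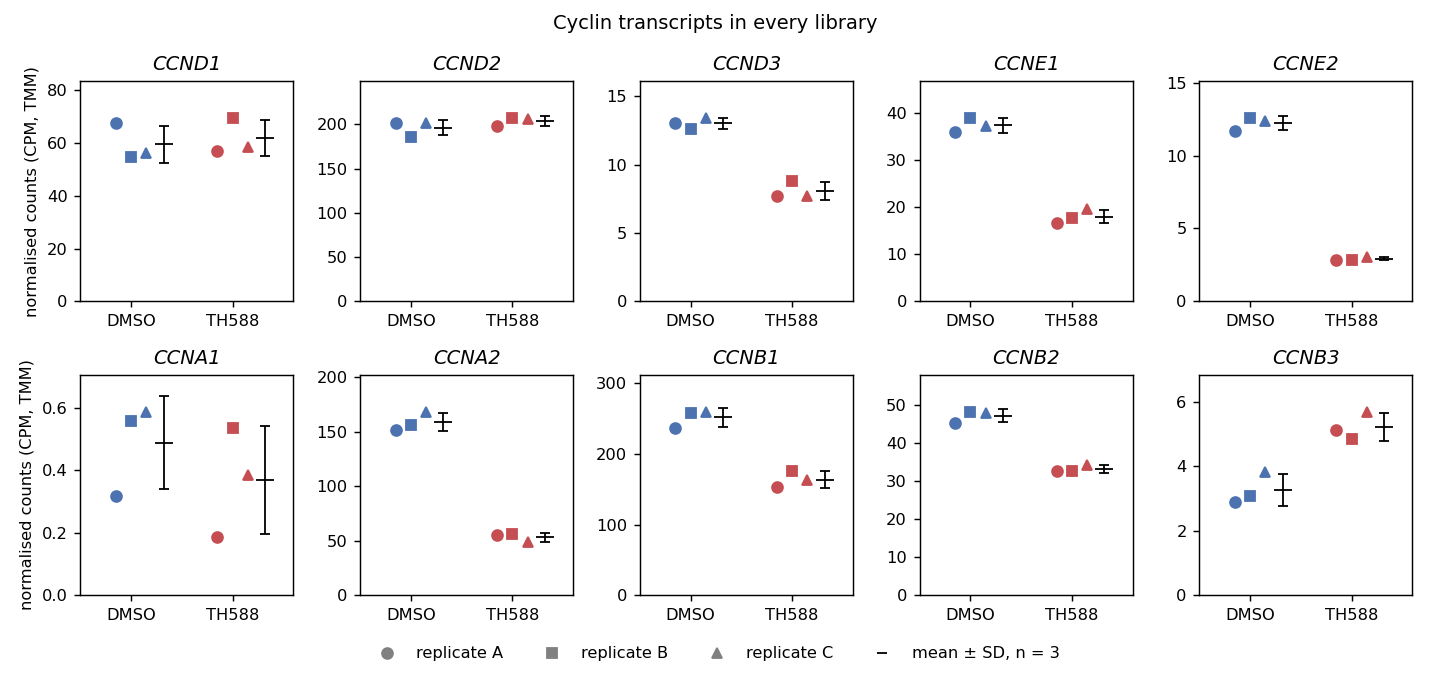
Normalised counts (CPM, vertical axis, from 0) of the 10 cyclins in each of the 3 DMSO (blue) and 3 TH588 (red) libraries, with the symbol giving the replicate letter and the black mark the mean ± SD. The groups are apart for *CCND3*, *CCNE1*, *CCNE2*, *CCNA2*, *CCNB1*, *CCNB2* and *CCNB3* and overlap for *CCND1*, *CCND2* and *CCNA1*.

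The D class was divided. *CCND1* and *CCND2*, which made up most of it, showed no detectable difference, while *CCND3* fell. *CCND2* (ENSG00000118971; GRCh38, chromosome 12, 4273772 to 4305350) was the most abundant D-type cyclin. In the order A, B, C, which is kept throughout, it stood at 201, 186 and 201 CPM with DMSO and at 198, 207 and 206 CPM with TH588. The groups overlapped, since TH588 replicate A lay below DMSO replicates A and C. The log2 fold change of *CCND2* was 0.06 (95% interval -0.11 to 0.22, adjusted p = 0.576 from edgeR's test).

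*CCND1* (ENSG00000110092; chromosome 11, 69641087 to 69654474) encodes the D-type cyclin that is most often amplified in human cancers. Its levels were 67.5, 54.8 and 56.2 CPM with DMSO and 57.2, 69.6 and 58.6 CPM with TH588. The groups overlapped, with DMSO replicate A and TH588 replicate B the highest of their groups. The log2 fold change was 0.06 (95% interval -0.17 to 0.28, adjusted p = 0.68 from edgeR's test), and it was -0.04 without TH588 replicate B, 0.00 without DMSO replicate B and 0.18 without DMSO replicate A. Exons of the neighbouring gene *LTO1* covered 10.3% of the exon bases of *CCND1*, and how reads in shared exons were counted is not given in the sources used here.

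*CCND3* (ENSG00000112576; chromosome 6, 41934933 to 42050357) was the scarcest of the class. It was at 13.01, 12.6 and 13.4 CPM with DMSO and at 7.70, 8.81 and 7.73 CPM with TH588. Each TH588 library lay below each DMSO library. The log2 fold change was -0.69 (SE 0.11, adjusted p = 0.000267 from edgeR's test), and it lay between -0.76 and -0.57 over the alternatives run.

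The make-up of the class was compared within libraries, after the counts were divided by exon length. Such shares do not depend on how libraries are scaled to each other. *CCND3* held 5.36% ± 0.26 of the summed D class with DMSO and 3.26% ± 0.12 with TH588 (SD, n = 3 each), without overlap. The exact two-sided permutation test gave p = 0.1, the smallest value that 3 against 3 allows, and 0.175 after adjustment over 7 such comparisons. *CCND2* held 65.4% ± 1.76 and 66.8% ± 1.99, and *CCND1* 29.3% ± 2.00 and 29.9% ± 1.88, and both overlapped between the groups.

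Both E-type cyclins fell, 2.07-fold for *CCNE1* and 4.18-fold for *CCNE2*. *CCNE1* (ENSG00000105173; chromosome 19, 29811898 to 29824308) was at 35.9, 39.0 and 37.2 CPM with DMSO. With TH588 it was at 16.7, 17.7 and 19.5 CPM, so that the highest treated library was well under the lowest control. The log2 fold change was -1.05 (SE 0.09, adjusted p = 1.79e-06 from edgeR's test).

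*CCNE2* (ENSG00000175305; chromosome 8, 94879770 to 94896678) showed the largest change of the 10 cyclins in every alternative run. Its levels were 11.7, 12.6 and 12.3 CPM with DMSO and 2.84, 2.87 and 3.03 CPM with TH588. The 3 libraries of each group lay close together and far from the other group. The log2 fold change was -2.06 (SE 0.12, adjusted p = 9.39e-08 from edgeR's test), and the estimate stayed between -2.07 and -1.95 over the alternatives. Exons of other genes, chiefly *INTS8*, an Integrator complex subunit, covered 37.1% of the exon bases of *CCNE2*, so its level and its fold change are uncertain. *INTS8* went from 85.1 ± 2.02 CPM with DMSO to 70.6 ± 8.43 CPM with TH588 (log2 fold change -0.27). The part of shared reads in the *CCNE2* result was not tested.

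The E-type RNAs were also compared within libraries. The log2 ratio of *CCNE2* to *CCNE1*, per exon length, was -2.41, -2.42 and -2.37 with DMSO and -3.34, -3.41 and -3.47 with TH588. The means differed by -1.01 and the groups did not overlap (exact permutation p = 0.1, adjusted 0.175), so the difference did not pass the threshold in a design that cannot go below 0.1.

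The A class came down to *CCNA2*. *CCNA2* (ENSG00000145386; chromosome 4, 121816444 to 121823933), which encodes the cyclin A of dividing body cells, was at 152, 157 and 169 CPM with DMSO. It was at 54.9, 56.3 and 48.4 CPM with TH588. Every TH588 library lay below every DMSO library, and the fall was 2.99-fold (log2 fold change -1.58, SE 0.09, adjusted p = 7.8e-08 from edgeR's test). Exons of *EXOSC9*, an exosome subunit gene, covered 9.08% of its exon bases, and *EXOSC9* had a log2 fold change of -0.88.

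*CCNA1* (ENSG00000133101; chromosome 13, 36431520 to 36442882) encodes the cyclin A of the male germ line. It was barely present, with 26, 46 and 55 counts under DMSO and 5, 58 and 32 counts under TH588. In CPM it was at 0.316, 0.557 and 0.587 with DMSO and at 0.187, 0.533 and 0.383 with TH588. The groups overlapped, although TH588 replicate A lay below every DMSO library. The log2 fold change of -0.30 had a 95% interval from -1.21 to 0.60 (adjusted p = 0.575 from edgeR's test). The estimate rested on single libraries, since it was -0.07 without TH588 replicate A and -0.67 without TH588 replicate B. A difference in *CCNA1* was therefore not detectable at this depth.

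*CCNB1* and *CCNB2* fell as well, by 1.54-fold and 1.42-fold, and *CCNB3* rose. *CCNB1* (ENSG00000134057; chromosome 5, 69167010 to 69178245) was at 237, 258 and 260.1 CPM with DMSO and at 153, 176 and 162 CPM with TH588. The groups were apart, and the log2 fold change was -0.62 (SE 0.08, adjusted p = 6.01e-05 from edgeR's test). *CCNB2* (ENSG00000157456; chromosome 15, 59105078 to 59125045), whose product is found at the Golgi apparatus, was at 45.4, 48.4 and 48.1 CPM with DMSO and at 32.6, 32.8 and 34.4 CPM with TH588. Its log2 fold change was -0.51 (SE 0.08, adjusted p = 0.000176 from edgeR's test).

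The log2 ratio of *CCNB1* to *CCNA2* within a library was 0.77, 0.85 and 0.75 with DMSO and 1.61, 1.77 and 1.88 with TH588. The means differed by 0.96 without overlap (exact permutation p = 0.1, adjusted 0.175). The log2 ratio of *CCNB2* to *CCNB1* was -2.54 ± 0.03 with DMSO and -2.43 ± 0.11 with TH588 (SD, n = 3 each), and TH588 replicate B lay within the DMSO values (exact permutation p = 0.3, adjusted 0.42).

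*CCNB3* (ENSG00000147082; chromosome X, 50202713 to 50351910), a cyclin best known from meiosis, was the sole cyclin of the 10 to rise. It was at 2.91, 3.08 and 3.82 CPM with DMSO and at 5.12, 4.84 and 5.70 CPM with TH588. The lowest TH588 library lay above the highest DMSO library. The log2 fold change was 0.67 (SE 0.15, adjusted p = 0.00267 from edgeR's test), and it ranged from 0.62 to 0.82 over the alternatives run. It remained a scarce RNA, with 239 to 358 counts per DMSO library and 137 to 527 per TH588 library.

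**Figure D2:**
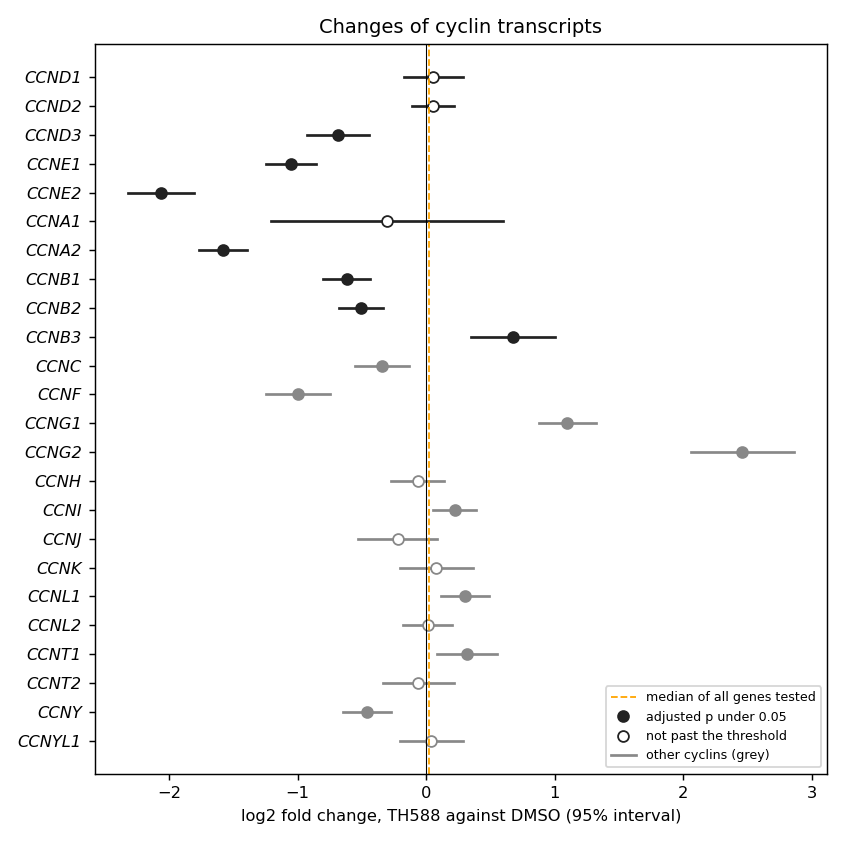
Log2 fold changes (horizontal axis, points) with 95% intervals (lines) from edgeR for the 10 cyclins (black) and 14 other cyclins that passed the filter on low counts (grey), filled where the adjusted p is under 0.05; the dashed line is the median of all genes tested. *CCNE2* lies farthest to the left at -2.06 and *CCNG2* farthest to the right at 2.46.

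The stretches of DNA just before *CCNA2*, *CCNB1* and *CCNB2* are shown because these genes share a known promoter layout, and that before *CCNE1* is set beside them as a cyclin gene of the G1/S transition that also fell. *CCND3* fell too, but it has 3 RefSeq windows and the counts do not say which start was used, so its windows are described and not printed. The CCAAT box is bound by the factor NF-Y. The cell cycle genes homology region (CHR) is bound by the MuvB core of the DREAM complex, which represses such genes in resting cells and, with B-MYB and FOXM1, activates them in dividing cells. E2F sites are typical of genes of the G1/S transition. The words were searched on both strands. They were CCAAT for the box of that name, and TTTGAA or a variant of it, TTCGAA, for the CHR. For E2F they were any of TTTCCCGC, TTTCGCGC, TTTGCCGC and TTTGGCGC. No word overlapped another in the sequences shown. RefSeq windows on GRCh38.p14 were at hand for 7 of the 10 genes, all but *CCND1*, *CCND2* and *CCNE2*. The 250 bases before the RefSeq start are printed 5′ to 3′ on the strand of the gene, with matches to these words in capitals, for *CCNA2* (minus strand, chr4:121823884-121824133), *CCNB1* (plus strand, chr5:69166900-69167149), *CCNB2* (plus strand, chr15:59104896-59105145) and *CCNE1* (plus strand, chr19:29811741-29811990). The gene models used for counting start 50 to 140 bases farther upstream than the RefSeq start of these 4 genes.
CCNA2: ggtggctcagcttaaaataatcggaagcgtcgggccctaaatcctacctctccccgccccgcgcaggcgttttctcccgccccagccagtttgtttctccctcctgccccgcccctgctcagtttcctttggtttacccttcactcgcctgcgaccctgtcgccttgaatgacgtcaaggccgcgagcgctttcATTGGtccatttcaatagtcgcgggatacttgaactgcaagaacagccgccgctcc
CCNB1: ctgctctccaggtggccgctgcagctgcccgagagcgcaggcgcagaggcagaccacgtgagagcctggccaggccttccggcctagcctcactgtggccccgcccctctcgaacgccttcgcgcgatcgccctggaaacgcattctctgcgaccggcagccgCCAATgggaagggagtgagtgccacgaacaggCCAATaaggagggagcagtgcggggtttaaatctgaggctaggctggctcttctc
CCNB2: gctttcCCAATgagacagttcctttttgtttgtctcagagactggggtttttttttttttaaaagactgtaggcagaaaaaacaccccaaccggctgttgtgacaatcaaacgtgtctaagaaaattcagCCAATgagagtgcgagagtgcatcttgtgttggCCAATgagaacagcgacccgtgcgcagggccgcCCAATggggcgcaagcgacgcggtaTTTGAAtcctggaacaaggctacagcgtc
CCNE1: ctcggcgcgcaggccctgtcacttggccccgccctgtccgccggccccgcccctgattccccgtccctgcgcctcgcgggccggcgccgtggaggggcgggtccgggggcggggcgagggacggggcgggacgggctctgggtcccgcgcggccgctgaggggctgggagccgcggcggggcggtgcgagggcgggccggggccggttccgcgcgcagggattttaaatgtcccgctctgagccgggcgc

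*CCNB2* held 4 CCAAT boxes and 1 CHR, *CCNB1* held 2 CCAAT boxes, *CCNA2* held 1, in reverse orientation, and *CCNE1* held none of the words. Of all 35116 windows of this length, 32.01% held at least 1 CCAAT box, 9.53% held 2 or more and 2.93% held 3 or more. A CHR word was in 14.34% of them, and both a CCAAT box and a CHR word in 5.05%. An E2F word was in 2.79% of all windows and in none of the 7 genes' windows. The box nearest to the start lay at similar distances, beginning 56 bases before it in *CCNA2*, 55 in *CCNB1* and 54 in *CCNB2*. *CCNB1* and *CCNB2* also shared a second box beginning 87 bases before the start. The windows before *CCNB3* and *CCNA1* held none of the words, and 2 of the 3 windows of *CCND3* held 1 CCAAT box each. The gene models used for counting start 2052 bases (*CCNB3*) and 435 bases (*CCNA1*) upstream of these RefSeq starts. Annotated exons of the same gene covered 96 of the 250 bases for *CCNB3* and 124 for *CCNA1*. These windows may therefore not be the promoters of the counted RNAs. Each match is a description of letters, and the absence of a word says only that these letters were not in this window. Other forms of the CHR and of E2F sites were not searched for. A window without these words may therefore still hold such a site.

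**Figure D3:**
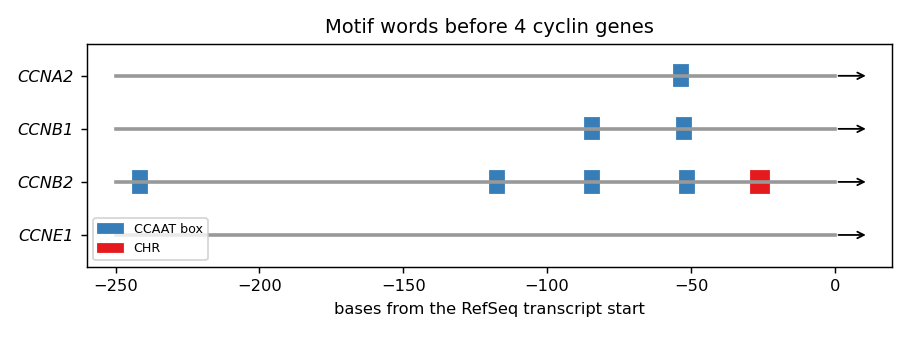
Position of CCAAT boxes (blue) and the CHR word (red) in bases from the RefSeq start (horizontal axis; arrow, direction of transcription) for 4 cyclin genes that fell. A CCAAT box begins 54 to 56 bases before the start of *CCNA2*, *CCNB1* and *CCNB2*, and *CCNE1* shows no match.

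Levels were compared between cyclins as RPKM, CPM per kilobase of exon. With DMSO the order was *CCNB1* (98.4 ± 5.03 RPKM), *CCNA2* (56.8 ± 3.07), *CCND2* (27.4 ± 1.23), *CCNB2* (16.9 ± 0.594), *CCNE1* (14.7 ± 0.604), *CCND1* (12.3 ± 1.44), *CCNE2* (2.78 ± 0.108), *CCND3* (2.24 ± 0.0685), *CCNB3* (0.605 ± 0.0899) and *CCNA1* (0.203 ± 0.0619; SD, n = 3 each). No neighbours in this order had overlapping values. With TH588 *CCNB1* was still the highest, at 64.0 ± 4.50 RPKM. *CCND2*, at 28.5 ± 0.739 RPKM, had passed *CCNA2*, at 19.0 ± 1.52 RPKM. *CCND1* (12.8 ± 1.41) and *CCNB2* (11.9 ± 0.345) came next, the only neighbours in this order whose values overlapped. *CCNE1* (7.05 ± 0.564), *CCND3* (1.39 ± 0.109), *CCNB3* (0.966 ± 0.0813), *CCNE2* (0.662 ± 0.0235) and *CCNA1* (0.153 ± 0.0724) followed. By these values *CCNE2* had dropped below *CCND3* and *CCNB3*. Its place in both orders is uncertain, since exons of other genes covered 37.1% of its exon bases.

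Summed by class, the D-type cyclins stood at 42.0 ± 2.41 RPKM with DMSO and 42.7 ± 2.08 with TH588 (SD, n = 3 each). The E class went from 17.4 ± 0.706 to 7.71 ± 0.587 RPKM, the A class from 57.0 ± 3.12 to 19.2 ± 1.52, and the B class from 116 ± 5.68 to 76.9 ± 4.49. The D class therefore took 18.1% ± 1.43 of the RPKM of all 10 cyclins with DMSO and 29.1% ± 0.0437 with TH588. The log2 ratio of the D class to the A and B classes together was -1.89, -2.15 and -2.10 with DMSO. It was -1.17, -1.18 and -1.16 with TH588, a difference of 0.87 without overlap (exact permutation p = 0.1, adjusted 0.175).

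**Figure D4:**
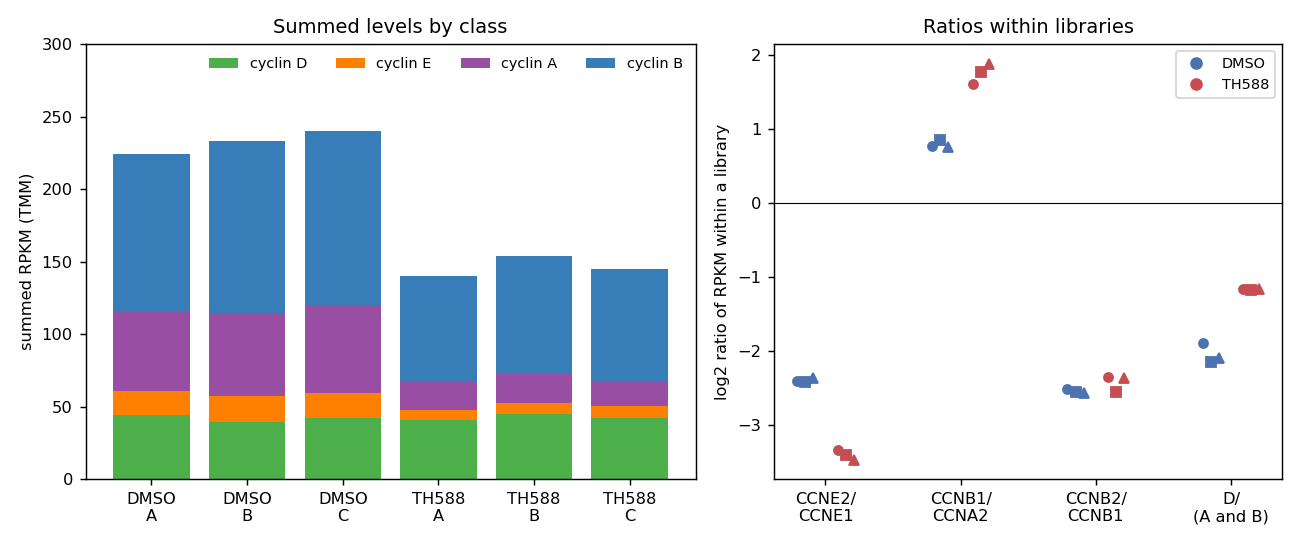
Left, summed RPKM of the D, E, A and B classes (stacked bars, vertical axis from 0) in each library; right, log2 ratios of RPKM within each library (points; blue, DMSO; red, TH588; symbol, replicate letter). The green D part keeps about the same height, at 39.5 to 44.9 RPKM over the 6 libraries, while the other parts are shorter with TH588.

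A chosen list of 17 other cyclins, not all that the genome holds, was set beside the 10. Most of them serve transcription, splicing, signalling and the stress response more than the G1-to-M sequence itself, and 14 of them passed the filter on low counts. Of the 14, 5 were higher and 3 were lower, and their median log2 fold change was 0.03. In all, 57.1% were called, near the 49.6% of all genes tested. *CCNG2*, a cyclin linked to cell cycle exit, rose from 4.25 ± 1.22 to 23.3 ± 3.29 CPM (SD, n = 3 each; log2 fold change 2.46). *CCNG1*, a classic p53 target, rose from 57.4 ± 3.36 to 123 ± 17.3 CPM (log2 fold change 1.10). The third rise by the rule for named genes, *CCNT1*, the partner of CDK9 in transcription elongation, was small, with a log2 fold change of 0.32. *CCNF*, the F-box cyclin of G2, fell by 0.996 on the log2 scale, *CCNY* by 0.46 and *CCNC*, of the Mediator kinase module, by 0.34. The number of higher genes depended on single libraries: leaving out DMSO replicate A gave 3, DMSO replicate B 2 and DMSO replicate C 3.

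Among 20 genes for the kinases that bind cyclins and for their switches, 18 passed the filter, of which 11 were lower and 3 higher (median log2 fold change -0.39). That is 61.1% lower and 16.7% higher, against 25.3% and 24.2% of all genes tested. With single libraries left out 8 to 10 were lower, and with scaling by library size alone 8 were. *CDC25A*, the phosphatase that activates CDK2, fell from 67.1 ± 2.32 to 18.0 ± 2.30 CPM (SD, n = 3 each; log2 fold change -1.89). *CDK1*, the partner of the B-type cyclins, fell from 58.8 ± 4.97 to 16.0 ± 2.71 CPM (log2 fold change -1.86). *PKMYT1*, which inhibits CDK1, fell by 1.26 on the log2 scale, but exons of other genes, chiefly *PAQR4*, covered 31.6% of its exon bases. *CDKN1A*, encoding the CDK inhibitor p21, was the sole rise by the rule for named genes, from 5.35 ± 0.46 to 139.8 ± 24.7 CPM (log2 fold change 4.71). *CDK6*, a partner of the D-type cyclins, had at most 10 counts in any library and was not tested.

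The 18 genes for the machinery that marks cyclins for destruction, counted together with its inhibitor *FBXO5*, all passed the filter. Of the 18, 10 were lower and 1 higher (median log2 fold change -0.40). The shares were 55.6% lower and 5.56% higher, beside 25.3% and 24.2% over all genes tested. The higher gene was *FBXW7*, the receptor for cyclin E, which rose from 28.1 ± 1.46 to 45.3 ± 4.81 CPM (SD, n = 3 each; log2 fold change 0.69). *FBXO5*, an inhibitor of the anaphase-promoting complex (APC/C), fell by 2.03 on the log2 scale, from 45.0 ± 1.22 to 10.97 ± 0.999 CPM. *UBE2C*, the ubiquitin-conjugating enzyme of the APC/C, fell by 1.45 and *SKP2*, the F-box receptor for p27, by 1.15.

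Of 24 genes for transcription factors and cofactors that act on cyclin genes, 14 were lower and 3 higher (median log2 fold change -0.46). These are shares of 58.3% and 12.5%, where all genes tested had 25.3% lower and 24.2% higher. *E2F8*, a repressor that itself peaks with S phase, fell from 32.9 ± 2.15 to 5.60 ± 0.198 CPM (SD, n = 3 each; log2 fold change -2.55). *E2F2* fell by 2.15 and *MYBL2*, encoding B-MYB, by 1.77 on the log2 scale. *TFDP2*, encoding a dimerization partner of E2F proteins, rose by 0.46 and *NFYC*, an NF-Y subunit gene, by 0.24. The other higher gene, *LIN37* of the MuvB core, is outside the rule for named genes and had a log2 fold change of 0.49. It was scarce, at 2.41 ± 0.362 CPM with DMSO and 3.38 ± 0.326 with TH588. Exons of other genes covered 54.0% of its exon bases, so its change is uncertain. The number of higher genes was 1 without DMSO replicate A, 5 without TH588 replicate A and 1 without TH588 replicate C.

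**Figure D5:**
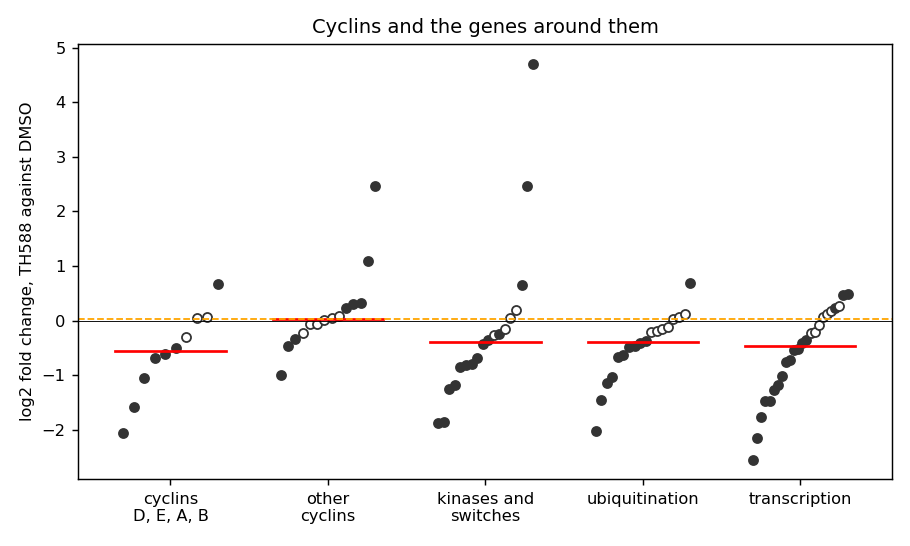
Log2 fold change (vertical axis) of every tested gene of the 10 cyclins and of 4 lists around them, filled where the adjusted p is under 0.05; red bars are list medians and the dashed line the median of all genes tested. The medians of the cyclins, kinases, ubiquitination and transcription lists lie between -0.56 and -0.39, and that of the other cyclins at 0.03.

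The genes whose pattern over the 6 libraries was most like that of each cyclin were sought among 9753 genes whose log2 CPM averaged 2 or more. Likeness was the Euclidean distance between log2 CPM values centred on the DMSO mean. Such a distance mainly finds genes with a like log2 fold change, as with *BRCA1* (-1.59) beside *CCNA2* (-1.58). Shared regulation of such pairs was not tested. The nearest pairs were *BEND7* and *ELL* for *CCND1*, *SNX14* and *RNF14* for *CCND2*, and *NOL9* and *DHX29* for *CCND3*. They were *CENPO* and *CSE1L* for *CCNE1* and *H4C4* and *EXO1* for *CCNE2*. For the later cyclins they were *BRCA1* and *DCLRE1A* (*CCNA2*), *DDX20* and *ZNF664* (*CCNB1*), *RANBP2* and *NPAT* (*CCNB2*), and *ZDBF2* and *ADPRM* (*CCNB3*). The smallest distance was 0.0386 log2 units, from *CCNB2* to *RANBP2*. *CCNA1*, with its few counts, had no close match, and its nearest genes, *MGAT4A* and *HNRNPA1P7*, lay at 0.683 and 0.744 log2 units.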

How the data were processed

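RNA from 6 samples of A2780 cells, 3 with DMSO and 3 with TH588, was sequenced after poly(A) selection and TruSeq library preparation. The labels call the samples replicates and do not say whether they came from separate cultures. The authors aligned the reads to GRCh38 with TopHat and counted them per gene with featureCounts 1.4.6 of Subread, and the deposited values are raw counts without normalization. The strand setting and the treatment of reads shared between genes are not given in the sources used here. The exon lengths come from the authors' deposited table. Symbols were matched by Ensembl identifier for 57754 of 58336 genes.

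Counts were compared with edgeR 4.0.16 in R 4.3.3: TMM scaling, the default filter on low counts, the quasi-likelihood test and Benjamini-Hochberg adjustment over 15844 genes. Each standard error is the estimate's size over the root of its F statistic. The procedure was tested on simulated counts. Ratios within libraries were compared with exact two-sided permutation tests, adjusted over 7 comparisons. Library totals were 28537837 to 99074175 counts.

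The cyclins and the lists were chosen with earlier results of these data known. List genes are named by the 3 largest rises and 3 largest falls per list that passed the threshold, averaged 2 or more in log2 CPM and had groups that did not overlap. The nearest 2 genes to each cyclin are also named. The alternatives were scaling by DESeq2's size factors or by library size alone, the tests of DESeq2 1.42.0 and limma-voom (limma 3.58.1), dropping the filter or asking for 10 counts or more per library, removal of the 10 most abundant genes, each library left out, the replicate block and an adjusted p under 0.01. For the ratios they were raw counts without division by length, each library left out and the replicate block.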

Additional observations from a re-analysis of the deposited data

How the results depend on the processing

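Of 149 values of single cyclins under the alternatives, 147 kept their direction and their side of the threshold. The 2 that did not were values of *CCND1*, which never passed the threshold and whose log2 fold change lay between -0.04 and 0.18 when 1 replicate was left out. It was 0.00 without DMSO replicate B and -0.04 without TH588 replicate B. Likewise, the difference in the share of *CCND1* in the D class ranged from -0.43 to 1.76 percentage points, and it was -0.18 without DMSO replicate C and -0.43 without TH588 replicate B. The number of higher genes ranged from 2 to 5 among the other cyclins and from 1 to 5 among the transcription genes when 1 replicate was left out, and at an adjusted p under 0.01 it was 2 and 1. The cause was not tested. Scaling by library size alone put the all-gene median at 0.126 on the log2 scale, and *CCND1* and *CCND2* both stood at 0.16, close to that shift. The letters gave no pairing of the libraries. After subtraction of group means, those with the same letter had correlations of -0.07, -0.08 and 0 across genes, and no library correlated best with its own letter. Under the replicate block, 3492 genes were higher and 3703 lower against 3839 and 4013 without it, *CCNE2* was at -2.07, *CCNA2* at -1.58 and *CCNB3* at 0.68, and no cyclin changed its call. *CCNA1* could not be tested with at least 10 counts in every library. Depth limited *CCNA1* most, with 5 counts in TH588 replicate A, and intervals cover the spread between these libraries only.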

Other observations

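Some genes of the transcription list are given here with their values, and they were picked out after the values were seen. *TFDP1*, which encodes the main dimerization partner of E2F proteins, fell from 176 ± 6.86 to 73.0 ± 7.36 CPM (SD, n = 3 each; log2 fold change -1.27, adjusted p = 4.03e-07 from edgeR's test), while *TFDP2* rose from 31.7 ± 1.42 to 43.6 ± 1.02 CPM (log2 fold change 0.46). The retinoblastoma relative *RBL1* fell by 1.48 on the log2 scale, while *RBL2* did not pass the threshold (log2 fold change 0.27, adjusted p = 0.0606 from edgeR's test). Of the NF-Y subunit genes, *NFYB* fell by 0.77, *NFYC* rose by 0.24 and *NFYA* did not pass the threshold (log2 fold change -0.09). Differences between these genes were not tested. Of the E2F genes, *E2F1*, *E2F2*, *E2F3*, *E2F4*, *E2F6* and *E2F8* were all lower, while *E2F5* and *E2F7* did not pass.

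Of the CDK inhibitor genes in the list of kinases and switches, *CDKN1A*, *CDKN1C* and *CDKN2D* were higher and *CDKN2C* was lower. *CDKN1B* (log2 fold change 0.04, adjusted p = 0.784 from edgeR's test) and *CDKN2A* (log2 fold change -0.27, adjusted p = 0.459 from edgeR's test) did not pass the threshold, and *CDKN2B* was too scarce to be tested. *CDKN1C*, encoding p57, rose from 0.269 ± 0.190 to 1.46 ± 0.351 CPM (SD, n = 3 each; log2 fold change 2.46, adjusted p = 0.000391 from edgeR's test), and *CDKN2D* rose from 1.84 ± 0.247 to 2.87 ± 0.503 CPM (log2 fold change 0.66). *CDKN2C*, which encodes an inhibitor of CDK4 and CDK6, fell from 17.3 ± 1.52 to 7.59 ± 0.501 CPM (log2 fold change -1.18).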
